A study of Mesocricetus auratus with 21 samples.

Results

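*Ddit4* and *Tp53inp2* were followed through 21 RNA-seq libraries, each made from whole testis of the golden hamster. They are 2 of the 22285 genes in the table, and they were chosen by their measured levels, both being lower in *Mov10l1*-/- testes than in the wild type at 0 days post-partum (d.p.p.) and higher at 9 d.p.p. Their genotype values at those ages are therefore given as a description, with no test. The ages at 13 d.p.p., 21 d.p.p. and in adults had no part in the choice, and the tests of the pair come from there.

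DDIT4, also called REDD1, is a small cytoplasmic protein that is made in response to hypoxia, glucocorticoids, DNA damage and shortage of amino acids. It acts through the TSC1–TSC2 complex as a brake on mTORC1, the kinase complex that promotes protein synthesis and holds back autophagy. TP53INP2, also called DOR, leaves the nucleus when cells are starved and binds LC3-family proteins on forming autophagosomes, and it also acts as a nuclear co-activator. Testes of any age hold both somatic cells, among them the Sertoli cells that nurse the germ line, and germ cells, and either can express such genes.

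The study compared *Mov10l1*+/+ and *Mov10l1*-/- males at 0, 9, 13 and 21 d.p.p. and as adults, with 2 libraries per genotype and age except for 3 wild-type libraries at 9 d.p.p. MOV10L1 is an RNA helicase needed to make piRNAs, the small RNAs that silence transposons in germ cells. Among the adults, ages were 65 and 23 weeks for the wild type and 63 and 53 weeks for *Mov10l1*-/-. The *Mov10l1*-/- animals were homozygous for a CRISPR–Cas9 deletion of exon 20 in every cell, a line that goes back to 1 founder female crossed to outbred animals for 2 generations, and at 9 d.p.p. the 2 *Mov10l1*-/- libraries come from 1 animal by their code, So820-M10. Single-end reads were used for the 9 youngest libraries (0 and 9 d.p.p.) and paired-end reads for the other 12, so levels were tested only within one layout.

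*Mov10l1* itself separated the genotypes at each age, with wild-type means between 34.3 and 134 CPM, counts per 1000000 of the scaled library total, and *Mov10l1*-/- means between 0.136 and 10.5 CPM. Library totals ran from 3550217 to 77527451 estimated counts. The germ-cell markers *Ddx4* and *Dazl* were present in wild-type testes of all ages, and the 13 germ-cell markers summed to 87.2–91.3 CPM in *Mov10l1*-/- testes at 21 d.p.p. against 1090–1490 CPM in the wild type. The samples are whole organs, in which fewer cells of a type and less RNA per cell cannot be told apart. All CPM values use totals scaled by the trimmed mean of M values (TMM) over the 21 libraries. Fold differences are ratios of mean CPM. Log2 fold changes with a standard error come from the edgeR fits, which scale only the libraries fitted, so they need not match the folds.

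*Ddit4* (ENSMAUG00000010020) lies on the plus strand of scaffold KB708151.1 of MesAur1.0, from 18333510 to 18335655. *Tp53inp2* (ENSMAUG00000004915) lies on the minus strand of scaffold KB708301.1, from 2303981 to 2311850. In all 21 libraries both genes had whole-number counts, which leaves no sign of reads shared with another gene, whereas 43.5% of the genes in the table had a fractional count in at least 1 library. The counts of *Ddit4* lay between 343 and 12446, and those of *Tp53inp2* between 54, in wild-type replicate 2 of 13 d.p.p., and 5121.

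In newborn testes (0 d.p.p.) both genes were lower without MOV10L1. Wild-type libraries held 34.2 and 39.7 CPM of *Ddit4*, and *Mov10l1*-/- libraries 23.4 and 20.1 CPM. The genotypes did not overlap, and the *Mov10l1*-/- mean was 1.70-fold lower (log2 fold change -0.78, standard error 0.13). *Tp53inp2* stood at 65.3 and 64.2 CPM in the wild type against 43.3 and 41.6 CPM, again without overlap and 1.52-fold lower (log2 fold change -0.62, standard error 0.11). Over all genes tested at this age, 1.93% were called in either direction, that is, passed edgeR's quasi-likelihood test at an adjusted p below 0.01.

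Markers of other cells also differed at 0 d.p.p. Of the 5 Sertoli-cell markers with an identifier (10 were listed), 3 were called lower in *Mov10l1*-/- testes (0.931% of all genes were), *Inha*, *Inhbb* and *Sox8*, and the 5 summed to 1110–1380 CPM against 1810–2070 CPM in the wild type. Most of that sum was *Clu*, named after its values were seen and not among the 3, at 1110 and 867 CPM against 1440 and 1680 CPM. *CYP11A1*, the cholesterol side-chain cleavage enzyme of Leydig cells, was higher (68.2 against 33.1 CPM). The embryonic globin gene *Hbb-y* (37.7 against 11.9 CPM) and *Dazl* (99.3 against 55.3 CPM) were higher too. *CYP11A1* and *Hbb-y* were the only Leydig-cell and erythroid markers with an identifier, of 7 and 4 listed. *Dazl* was the 1 of 13 germ-cell markers called higher, and 1 other was called lower. *Ddx4* stood at 107 and 81.4 CPM in *Mov10l1*-/- testes against 99.7 and 74.3 CPM. Of 5 macrophage markers 1 was called lower, as was 1 of 3 endothelial markers. All these markers have identifiers only through the study's tables of changed genes, which include this age. Their counts are therefore no independent evidence of a direction. The part of these cell types in the lower *Ddit4* and *Tp53inp2* values was not tested. Both *Mov10l1*-/- newborns carry the code So843, which neither wild-type newborn carries, so whatever the code stands for and the genotype cannot be told apart at this age.

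At 9 d.p.p. both genes were higher in *Mov10l1*-/- testes. *Ddit4* measured 116, 118 and 141 CPM in wild-type replicates 1 to 3 and 164.1 CPM in both *Mov10l1*-/- libraries. All 3 wild-type libraries lay below the *Mov10l1*-/- pair, which was 1.40-fold above the first 2 (log2 fold change 0.45, standard error 0.07). *Tp53inp2* stood at 20.0, 27.6 and 46.0 CPM in wild-type testes and at 48.7 and 49.0 CPM in the *Mov10l1*-/- libraries. The third wild-type library came close to the *Mov10l1*-/- pair without reaching it. Against wild-type replicates 1 and 2 the pair was 2.05-fold higher (log2 fold change 1.01, standard error 0.14), and with all 3 the log2 fold change was 0.62.

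Wild-type replicate 3 (So820-M12) shares the first part of its code with the *Mov10l1*-/- animal (So820-M10), and the other wild-type libraries are from So802. Within So820 the log2 ratio of *Mov10l1*-/- to wild type was 0.22 for *Ddit4* and 0.09 for *Tp53inp2*. The closeness of the 2 *Mov10l1*-/- libraries is that of libraries from 1 animal, and their standard errors hold no spread between *Mov10l1*-/- animals. At this age 3.74% of all genes were called in either direction. All 13 germ-cell markers were called lower, where 3.19% of all genes were. Their identifiers come from the study's tables of changed genes, which include this age, so that count is no independent evidence of a direction. The 5 Sertoli-cell markers summed to 3470–3630 CPM in *Mov10l1*-/- testes (*Clu* alone 2450 and 2560 CPM) and 3200–3280 CPM in the wild type (*Clu* 2420, 2340 and 2360 CPM). The part of either in the values of the pair was not tested.

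Between birth and 9 d.p.p. the pair took different courses. *Ddit4* went from a mean of 37.0 to 117 CPM in the wild type, a 3.17-fold difference, and from 21.7 to 164 CPM in *Mov10l1*-/- testes, a 7.55-fold difference. *Tp53inp2* went from 64.8 to 23.8 CPM in the wild type, 2.73-fold down, and lay at 42.5 and 48.8 CPM at the 2 ages in *Mov10l1*-/- testes. That last log2 ratio was 0.20 with TMM scaling and -0.31 on plain library totals, so its sign depends on the scaling.

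**Figure D1:**
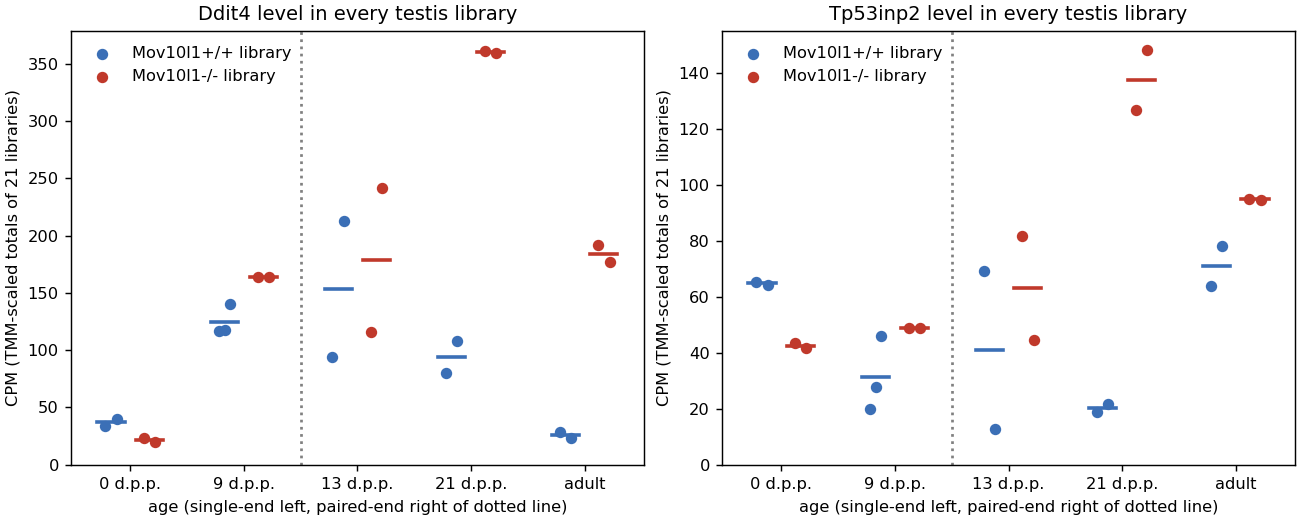
CPM of *Ddit4* (left) and *Tp53inp2* (right) in each of the 21 testis libraries by age, with 1 point per library, a horizontal bar at the group mean, blue for *Mov10l1*+/+ and red for *Mov10l1*-/-. The *Mov10l1*-/- points lie below the wild type at 0 d.p.p., interleave with it at 13 d.p.p. and reach their highest means at 21 d.p.p., 360 CPM for *Ddit4* and 137 CPM for *Tp53inp2*.

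At 13 d.p.p. no difference between genotypes was detectable for either gene. *Ddit4* stood at 94.1 and 213 CPM in wild-type testes and at 116 and 241 CPM in *Mov10l1*-/- testes. The genotypes overlapped, and in each the high library carried the code F64 and the low library F60. The log2 fold change between genotypes was 0.08 with a standard error of 0.50 (edgeR, adjusted p = 0.96), and it ranged from -0.49 to 0.89 when 1 library was left out. *Tp53inp2* stood at 69.2 and 12.8 CPM in wild-type testes and at 81.8 and 44.5 CPM in *Mov10l1*-/- testes. The genotypes overlapped again, and here F60 was the higher of the codes in both, the reverse of *Ddit4*. The log2 fold change was 0.55 with a standard error of 0.64 (adjusted p = 0.76). It was -0.17 without wild-type replicate 2, the library of lowest total, and 2.17 without wild-type replicate 1 (adjusted p = 0.0259). At this age 0.121% of all genes were called.

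Within a code, the *Mov10l1*-/- library of 13 d.p.p. lay above the wild-type library in all 4 comparisons with TMM scaling, and in all but *Ddit4* of F64 (log2 ratio -0.14) on plain library totals. For *Ddit4* the TMM-scaled log2 ratio was 0.30 in F60 and 0.18 in F64. For *Tp53inp2* it was 0.24 in F60 and 1.80 in F64, where the wild-type value rests on 54 counts. At 21 d.p.p. the code F58 also holds both genotypes, with log2 ratios of 1.74 for *Ddit4* and 2.55 for *Tp53inp2*. The sources used here do not say what the first part of a code stands for.

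**Figure D2:**
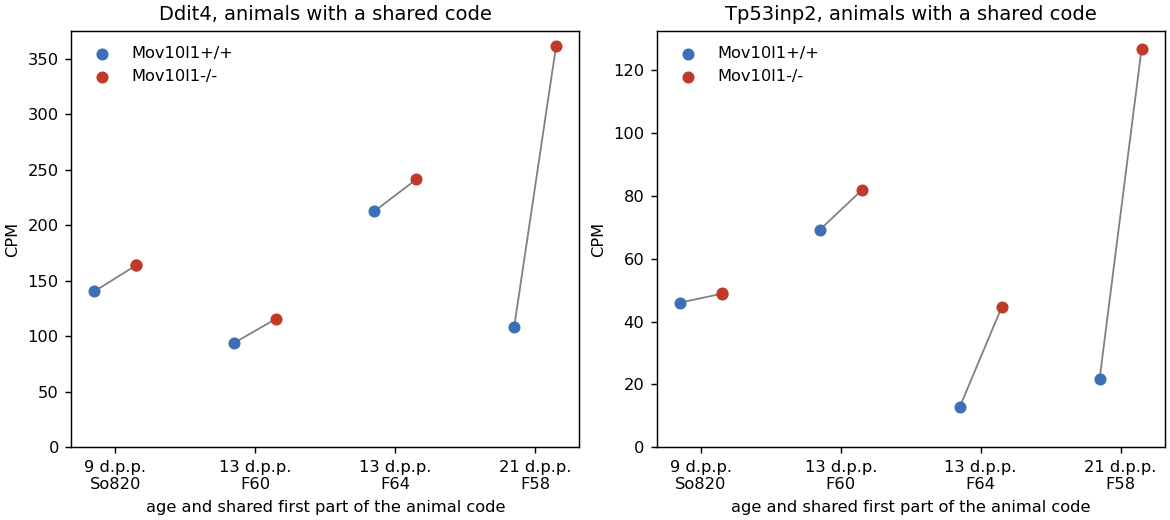
CPM of *Ddit4* (left) and *Tp53inp2* (right) in animals of both genotypes that share the first part of their code, with a line from the wild-type library (blue) to the *Mov10l1*-/- value (red, 2 libraries of 1 animal at So820). At 13 d.p.p. the codes lie farther apart than the genotypes for *Ddit4* (94.1 and 116 CPM in F60, 213 and 241 CPM in F64), and at 21 d.p.p. the genotypes differ from 108 to 361 CPM.

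At 21 d.p.p. both genes were higher in *Mov10l1*-/- testes. *Ddit4* stood at 80.1 and 108 CPM in wild-type testes and at 361 and 360 CPM in *Mov10l1*-/- testes. *Tp53inp2* stood at 18.7 and 21.6 CPM in wild-type testes and at 127 and 148 CPM in *Mov10l1*-/- testes. Neither gene overlapped between genotypes. *Ddit4* was 3.83-fold higher (log2 fold change 1.76, standard error 0.23; edgeR, adjusted p = 5.42e-04), and *Tp53inp2* was 6.82-fold higher (log2 fold change 2.59, standard error 0.19; adjusted p = 4.53e-05).

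Being called was common at 21 d.p.p., since 38.0% of all genes passed the same threshold and 17.1% were called higher. By size, 80 of the 14834 genes tested (0.539%) had a log2 fold change at or above that of *Tp53inp2*, and 609 (4.11%) one at or above that of *Ddit4*. Leaving out 1 library at a time kept both genes past the threshold, with log2 fold changes of 1.55 to 1.98 for *Ddit4* and 2.47 to 2.71 for *Tp53inp2*. On plain library totals the call of *Ddit4* was lost (log2 fold change 1.58, adjusted p = 0.0506), with the median of all genes at -0.17.

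In adults *Ddit4* was called higher in *Mov10l1*-/- testes and *Tp53inp2* was not called. *Ddit4* stood at 28.9 and 23.0 CPM in wild-type testes and at 192 and 177 CPM in *Mov10l1*-/- testes, without overlap and 7.10-fold higher (log2 fold change 2.80, standard error 0.15; edgeR, adjusted p = 3.27e-06). *Tp53inp2* stood at 63.7 and 78.2 CPM in wild-type testes and at 95.0 and 94.5 CPM in *Mov10l1*-/- testes. The libraries did not overlap, but the 1.34-fold difference missed the threshold (log2 fold change 0.40, standard error 0.14; adjusted p = 0.0339). Among all genes 74.4% were called in adults and 37.1% called higher, with a median log2 fold change of 0.14. The adult *Tp53inp2* difference depended on the scaling: it was 0.19 under DESeq2 (adjusted p = 0.37) and 0.19 with RLE size factors (adjusted p = 0.29, median of all genes -0.06), and 0.27 among genes with at least 10 counts in every library (adjusted p = 0.11). It passed the threshold on plain library totals (log2 fold change 0.62, adjusted p = 0.00579, median of all genes 0.36) and without wild-type adult replicate 2, the 23-week-old animal (0.57, adjusted p = 0.00297).

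Sertoli-cell markers moved with the genotype at both ages, read against the shares of all genes called higher and lower (17.1% and 20.9% at 21 d.p.p., 37.1% and 37.2% in adults). At 21 d.p.p. 4 of the 5 were called higher and none lower, and they summed to 6300–6540 CPM in *Mov10l1*-/- testes against 1910–1960 CPM in the wild type. In adults all 5 were called higher, at 5660–6210 CPM against 738–1000 CPM. *Clu* made up most of these sums, at 4670 and 4750 CPM against 1650 and 1490 CPM at 21 d.p.p. In adults *Clu* stood at 4880 and 5120 CPM against 884 and 643 CPM. The median log2 fold change of the 5 was 1.41 at 21 d.p.p. and 2.69 in adults, beside 1.76 and 2.80 for *Ddit4*. *CYP11A1* was 431 against 61.2 CPM at 21 d.p.p. and 700 against 25.2 CPM in adults. Germ-cell markers were called lower for 11 of 13 genes at 21 d.p.p. and 5 of 13 in adults, the latter near the share over all genes, with 3 called higher. The 13 summed to 236–250 CPM in adult *Mov10l1*-/- testes and 2980–3520 CPM in the wild type. The part of this difference in the levels of *Ddit4* and *Tp53inp2* was not tested.

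Macrophage markers were called higher for 3 of 5 genes at 21 d.p.p., where 17.1% of all genes were, and for 2 of 5 in adults, where 37.1% were. Peritubular and smooth muscle markers were called lower for 1 of 5 genes at 21 d.p.p., *Tagln*, and higher for 4 of 5 in adults. Of 3 endothelial markers 1 was called higher in adults, *Flt1*. *Hbb-y* was 9.16 against 4.36 CPM at 21 d.p.p. and 1.07 against 0.414 CPM in adults and was called at neither age.

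**Figure D3:**
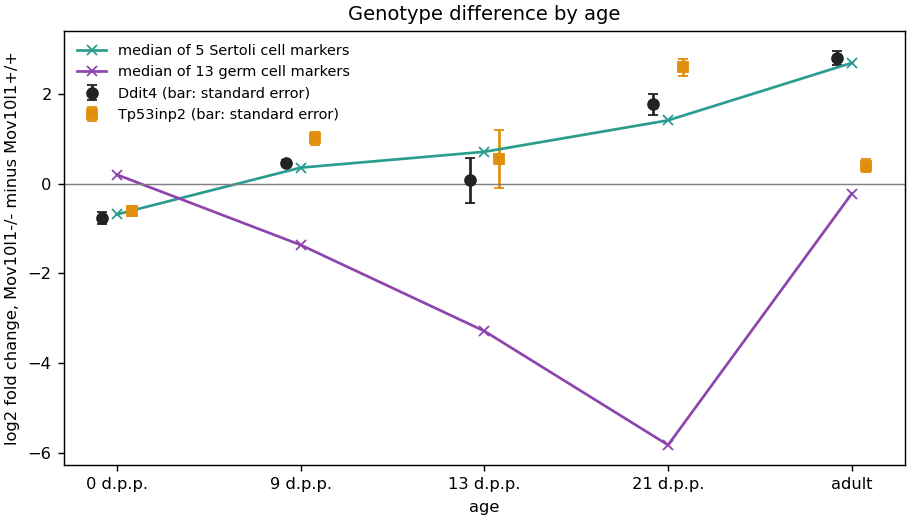
Log2 fold change (*Mov10l1*-/- minus wild type) of *Ddit4* and *Tp53inp2* at each age with standard errors, beside the median of 5 Sertoli-cell markers (green line) and of 13 germ-cell markers (purple line). *Ddit4* lies below the Sertoli-cell median at 13 d.p.p. (0.08 against 0.71) and above it at 21 d.p.p. (1.76 against 1.41) and in adults (2.80 against 2.69). *Tp53inp2* lies above that median at 21 d.p.p. (2.59 against 1.41) and below it in adults (0.40 against 2.69). The values of the ages before 13 d.p.p. chose the pair, so closeness to the median there is no independent evidence. The markers have identifiers only through the study's tables of changed genes. The part of Sertoli cells in the values of the pair was not tested.

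With age the wild-type levels of the pair moved in opposite directions. From 21 d.p.p. to adulthood *Ddit4* fell 3.62-fold in wild-type testes (log2 fold change -1.94, standard error 0.23; edgeR, adjusted p = 2.72e-04), while *Tp53inp2* rose 3.52-fold (1.74, standard error 0.21; adjusted p = 2.90e-04). Of all genes 51.8% were called in this comparison. The rise of *Tp53inp2* missed the threshold in a joint fit of the 12 paired-end libraries (1.59, adjusted p = 0.0198) and on plain library totals (1.30, adjusted p = 0.0294, median of all genes -0.49). From 13 to 21 d.p.p. neither gene was called in the wild type (log2 fold changes -0.69 and -0.97, adjusted p = 0.36 and 0.34, 4.20% of genes called), and the values hung on the 2 wild-type libraries of 13 d.p.p. Without replicate 2 the change was 0.06 for *Ddit4* and -1.72 for *Tp53inp2* (adjusted p = 0.00412), and without replicate 1 it was -1.21 for *Ddit4* and 0.63 for *Tp53inp2*.

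In *Mov10l1*-/- testes the highest levels were those of 21 d.p.p. From 13 to 21 d.p.p. the log2 fold change was 0.94 for *Ddit4* (edgeR, adjusted p = 0.0507) and 1.04 for *Tp53inp2* (adjusted p = 0.0281), with no overlap between the ages and 9.57% of genes called. DESeq2, which called 16.9% of genes, called both (adjusted p = 0.00342 and 0.00114). From 21 d.p.p. to adulthood both genes fell, *Ddit4* by 1.05 on the log2 scale (adjusted p = 9.16e-04) and *Tp53inp2* by 0.62 (adjusted p = 0.00627), in a comparison that called 29.5% of genes. Both calls were lost in the joint fit of 12 libraries (adjusted p = 0.0644 and 0.40) and on plain library totals (adjusted p = 0.0418 and 0.35). The call of *Ddit4* was also lost without *Mov10l1*-/- adult replicate 2 (adjusted p = 0.0139), and that of *Tp53inp2* without *Mov10l1*-/- replicate 2 of 21 d.p.p. (adjusted p = 0.0103) or either *Mov10l1*-/- adult (adjusted p = 0.0414 and 0.0641).

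Whether the genotype difference itself changed with age was tested as an interaction over the 12 paired-end libraries. From 13 to 21 d.p.p. the genotype difference grew by 1.74 for *Ddit4* (standard error 0.55; edgeR, adjusted p = 0.059) and by 2.19 for *Tp53inp2* (standard error 0.74; adjusted p = 0.0731) on the log2 scale, neither past the threshold, with 4.04% of genes called. The estimate was 0.92 for *Ddit4* and 2.82 for *Tp53inp2* (adjusted p = 0.00188) without wild-type replicate 2 of 13 d.p.p., and 2.14 and 0.43 without replicate 1. From 21 d.p.p. to adulthood the estimate was 1.03 for *Ddit4* (standard error 0.54; adjusted p = 0.14) and -2.22 for *Tp53inp2* (standard error 0.73; adjusted p = 0.0261), with 29.8% called. A fit of only the 8 libraries of 21 d.p.p. and adults, which leaves out the spread of 13 d.p.p., called both (*Ddit4* 1.02, adjusted p = 0.00987; *Tp53inp2* -2.22, adjusted p = 9.41e-05). With the replicate number as a block in edgeR, the *Ddit4* interaction of 13 and 21 d.p.p. passed (1.73, adjusted p = 0.00937). So did the *Tp53inp2* interaction of 21 d.p.p. and adults (-2.21, adjusted p = 0.00243). That block does not follow the animal codes at 21 d.p.p., where F58 is replicate 2 of the wild type and replicate 1 of *Mov10l1*-/-. In adults no code is shared.

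Ordered by mean level over the 10 groups, *Ddit4* was highest in *Mov10l1*-/- testes of 21 d.p.p. (360.5 ± 1.13 CPM, SD, n = 2), which overlapped no other group. Then came *Mov10l1*-/- adults (184 ± 10.4 CPM), *Mov10l1*-/- testes of 13 d.p.p. (179 ± 88.6 CPM) and 9 d.p.p. (164 CPM), and wild-type testes of 13 d.p.p. (153 ± 83.7 CPM) and 9 d.p.p. (125 ± 13.5 CPM, n = 3), each overlapping the next in that order. Wild-type testes of 21 d.p.p. (94.1 ± 19.8 CPM) and 0 d.p.p. (37.0 ± 3.92 CPM) stood apart from their neighbours in the order. Those of 21 d.p.p. (80.1 to 108 CPM) still overlapped wild-type testes of 13 d.p.p. (94.1 to 213 CPM). Wild-type adults (26.0 ± 4.22 CPM) and *Mov10l1*-/- newborns (21.7 ± 2.34 CPM) overlapped at the bottom.

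*Tp53inp2* was also highest in *Mov10l1*-/- testes of 21 d.p.p. (137 ± 15.1 CPM) and next in *Mov10l1*-/- adults (94.7 ± 0.366 CPM), both apart from their neighbours. Wild-type adults (70.9 ± 10.2 CPM), wild-type newborns (64.8 ± 0.780 CPM), *Mov10l1*-/- testes of 13 d.p.p. (63.2 ± 26.3 CPM) and *Mov10l1*-/- testes of 9 d.p.p. (48.8 ± 0.165 CPM) each overlapped the next. *Mov10l1*-/- newborns (42.5 ± 1.21 CPM), wild-type testes of 13 d.p.p. (41.0 ± 39.9 CPM), 9 d.p.p. (31.2 ± 13.4 CPM, n = 3) and 21 d.p.p. (20.1 ± 2.06 CPM) also each overlapped the next. Groups farther apart in the order overlapped as well. Wild-type testes of 13 d.p.p. (12.8 to 69.2 CPM) reached into the range of wild-type adults (63.7 to 78.2 CPM). The orders set single-end beside paired-end libraries and are a description. On plain library totals the first place of both genes was the same, but lower places moved. *Mov10l1*-/- adults had rank 5 for *Ddit4* and rank 3 for *Tp53inp2*, and wild-type adults rank 10 and rank 7. Rank 2 fell to wild-type testes of 13 d.p.p. for *Ddit4* and to wild-type newborns for *Tp53inp2*.

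Across the 21 libraries the 2 genes did not follow each other. With single-end and paired-end libraries each centred on their own mean of log2 CPM, Pearson's r between *Ddit4* and *Tp53inp2* was 0.03, rank 490 of the 1002 named genes compared for *Ddit4*. The genes most like *Ddit4* were *CUNH4orf48* (r = 0.976), *Smox*, which encodes spermine oxidase (0.968), *Gadd45a*, a growth arrest gene induced by DNA damage (0.966), *Exoc3l2* (0.960) and *Sox8*, a transcription factor gene of Sertoli cells (0.957). Those most like *Tp53inp2* were *Glrx*, which encodes glutaredoxin (0.911), *Tfg*, a gene of vesicle export from the endoplasmic reticulum (0.885), *Tecr*, an enzyme gene of very long-chain fatty acid synthesis (0.835), *Map1lc3a*, which encodes the autophagosome protein LC3A (0.830), and *Reep1*, a gene of endoplasmic reticulum shaping (0.804). These correlations describe 21 libraries that share ages, genotypes and layouts, and most named genes are ones the study listed as changed. Without centring, 3 of the 5 were again among the first 5 for each gene. *Gadd45a* and *Sox8* then had ranks 13 and 27 for *Ddit4*, and *Glrx* and *Reep1* ranks 16 and 10 for *Tp53inp2*.

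Other genes of stress and autophagy pathways were read from 6 lists. Besides the pair, an identifier was in hand for 47 of the 128 listed genes, those named in the study's own tables of genes changed in testes of 0 or 9 d.p.p. or in oocytes, so their counts are no independent evidence of a direction. At 21 d.p.p. 18 of the 47 were called higher and 10 lower in *Mov10l1*-/- testes (17.1% and 20.9% over all genes), with a median log2 fold change of 0.16 beside 0.04 over all genes. In adults 27 were called higher and 10 lower (37.1% and 37.2% over all genes), with a median of 0.88 beside 0.14. At 13 d.p.p. edgeR called 0 of the 47, with 6 at an unadjusted p below 0.05, and DESeq2 called 2 (2.32% over all genes).

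Among 6 regulators of mTORC1 and its upstream signals, 3 were called higher and 2 lower at 21 d.p.p., and 5 higher and 1 lower in adults. Over all genes 17.1% were called higher and 20.9% lower at 21 d.p.p., and 37.1% and 37.2% in adults. *Deptor*, whose product binds and inhibits mTOR, was 6.67 against 2.41 CPM at 21 d.p.p. and 8.52 against 0.669 CPM in adults. *Irs1*, the adaptor of insulin signalling that feeds mTORC1, was 35.1 against 9.70 CPM at 21 d.p.p. and 24.1 against 6.89 CPM in adults. In adults *Castor2*, a relative of the arginine sensor CASTOR1, was 38.6 against 9.95 CPM. *Prr5*, an mTORC2 subunit gene, was lower at 21 d.p.p. (4.74 against 24.9 CPM) and higher in adults (14.8 against 5.67 CPM). Brakes and activators of the pathway thus both stood among the genes called higher.

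Of 10 autophagosome and lysosome genes, 5 were called higher and 1 lower at 21 d.p.p., and 6 higher and 2 lower in adults. The shares over all genes were 17.1% higher and 20.9% lower at 21 d.p.p., and 37.1% and 37.2% in adults. *Lipa*, the lysosomal acid lipase, was 42.4 against 7.83 CPM at 21 d.p.p. and 29.7 against 3.02 CPM in adults. *Scarb2*, a lysosomal membrane protein gene, was 184 against 58.9 CPM at 21 d.p.p. and 187 against 20.4 CPM in adults. Both were called higher at both ages.

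The list had an identifier for 2 genes of the LC3 family, whose products TP53INP2 binds. Both were called higher at 21 d.p.p., where 17.1% of all genes were. *Map1lc3a* was 89.3 against 33.4 CPM at that age (log2 fold change 1.25; edgeR, adjusted p = 0.00105) and 46.8 against 57.1 CPM in adults, where it was not called (log2 fold change -0.31, adjusted p = 0.0438). *Gabarapl1*, named after its values were seen, was 51.7 against 23.1 CPM at 21 d.p.p. and lower in adults (64.6 against 162 CPM). *Mtmr14*, a phosphoinositide phosphatase gene, was called lower at both ages.

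All 3 genes of the integrated stress response with an identifier, *Asns*, *Phgdh* and *Mthfd1l*, enzymes of amino acid and one-carbon metabolism, were called higher at both ages. Among all genes tested, 17.1% were called higher and 20.9% lower at 21 d.p.p., and 37.1% and 37.2% in adults. *Asns* was 164 against 54.7 CPM at 21 d.p.p. and 157 against 62.4 CPM in adults, and *Phgdh* was 120 against 14.9 CPM in adults. The 13 endoplasmic reticulum chaperone genes moved both ways, with 2 called higher and 3 lower at 21 d.p.p. and 4 higher and 5 lower in adults. *Sdf2l1* (4.38 against 25.6 CPM) and *Hyou1* (135 against 256 CPM) were lower at 21 d.p.p., and *Cnpy2* was higher (61.9 against 20.8 CPM). In adults *Creld2* was lower (90.7 against 416 CPM).

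Among 6 genes of the p53 and DNA damage list, *Gadd45a* was the 1 gene called higher at 21 d.p.p. (43.8 against 15.8 CPM) and in adults (40.1 against 4.89 CPM). Called lower were 3 of the 6 at 21 d.p.p. and 2 in adults, with list median log2 fold changes of -1.05 and 0.32. The damage-signalling kinase gene *Atr* (21.3 against 237 CPM) and the histone variant gene *H2ax* (26.3 against 162 CPM), both called lower at 21 d.p.p. and in adults, are known for their roles in silencing the sex chromosomes at meiosis. Of 9 genes responsive to FOXO factors or glucocorticoids, 4 were called higher and 1 lower at 21 d.p.p., and 8 higher in adults. For both of these lists, the shares over all genes were 17.1% higher and 20.9% lower at 21 d.p.p., and 37.1% and 37.2% in adults. *Fkbp5*, a standard glucocorticoid target, was 169 against 58.5 CPM at 21 d.p.p. and 274 against 33.5 CPM in adults. *Sult1a1* was 76.2 against 13.2 CPM and 80.1 against 8.05 CPM, and *Cited2* was 86.2 against 22.8 CPM and 82.2 against 10.7 CPM. In adults *Fbxo32*, a muscle-wasting ubiquitin ligase gene, was 33.5 against 3.79 CPM.

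At the ages that chose the pair, the number and direction of the calls depended on the tool. At 0 d.p.p. edgeR called 4 of the 47, all higher, and DESeq2 called 4 higher and 6 lower. With edgeR, 164 of all 16333 genes (1.0%) were called higher and 0.931% lower. The 4 were the lysosomal channel gene *Mcoln1* (44.6 against 25.5 CPM), *Atr*, *Prkdc* and *CUNH10orf10* (18.0 against 7.60 CPM). At 9 d.p.p. edgeR called 3 higher and 8 lower, whereas DESeq2 called 21 higher and 16 lower, and the median log2 fold change of the 47 was 0.32. Called higher by edgeR were *Scarb2* (103 against 71.8 CPM), *Map1lc3a* (59.9 against 42.4 CPM) and *Sult1a1* (31.3 against 21.4 CPM), and among those called lower were *Castor2*, *Atr*, *Gadd45b* and *Nr1d1* (2.40 against 5.31 CPM). Over all genes 0.559% were called higher and 3.19% lower at that age. The 9 d.p.p. calls rest on 1 *Mov10l1*-/- animal and wild-type replicates 1 and 2. With wild-type replicate 3 included, edgeR called 0 of the 47 and 63 genes in all.

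**Figure D4:**
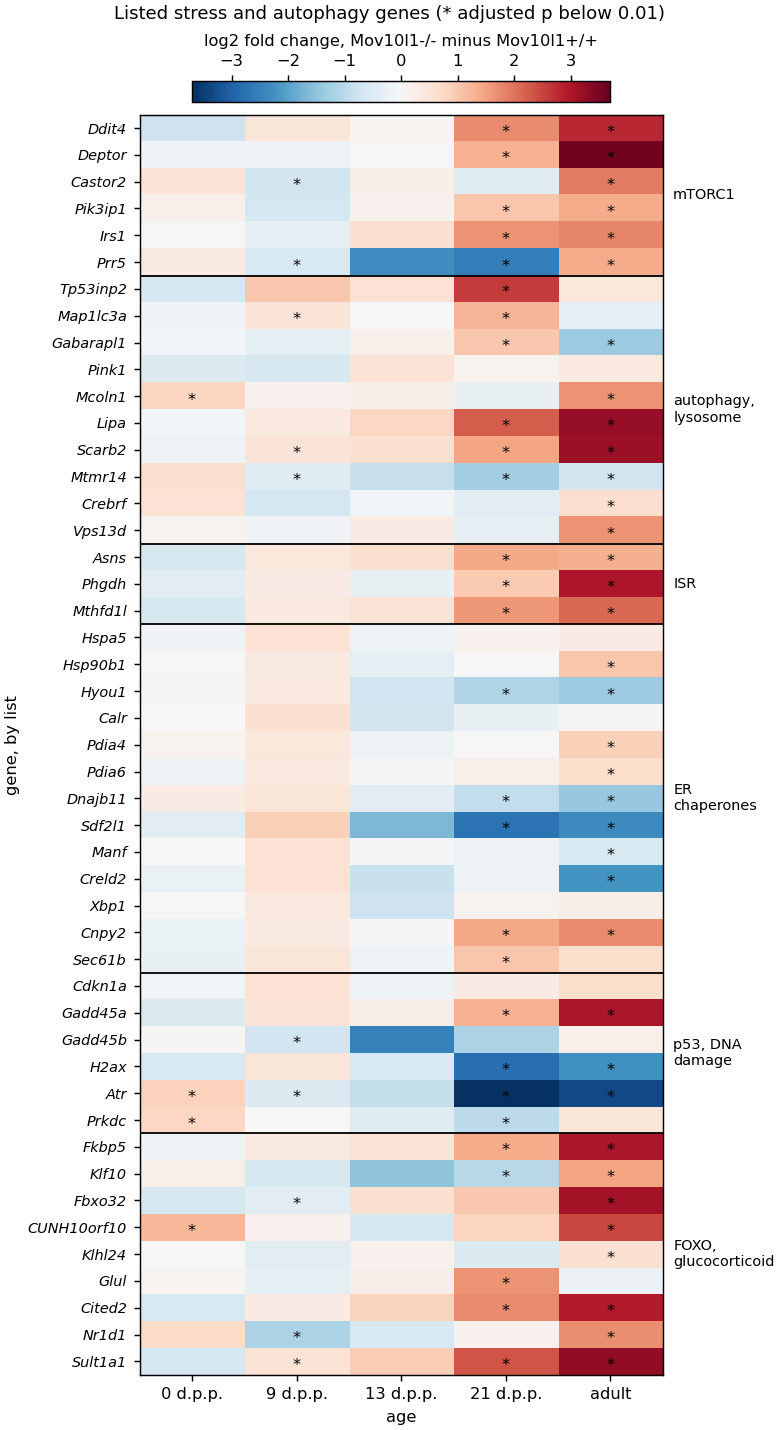
Log2 fold change (*Mov10l1*-/- minus wild type) at each age for *Ddit4*, *Tp53inp2* and 45 other listed genes, by list, with red for higher and blue for lower in *Mov10l1*-/- testes. A star marks an adjusted p below 0.01 in edgeR and is left off for the pair at 0 and 9 d.p.p.; 26 of the 45 bear one at 21 d.p.p. and 35 in adults, whereas 0 d.p.p. has 4 and 9 d.p.p. has 10.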

How the data were processed

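RNA was sequenced from whole testes in 21 libraries. The authors aligned reads with STAR (2.7.3a) to MesAur1.0 and counted them over Ensembl release 99 genes with featureCounts (2.0.0), sharing multimapping reads (up to 20 alignments) and reads over several genes as fractions, and deposited these estimated counts without normalization. Reads were single-end of 75 nt at 0 and 9 d.p.p. and paired-end of 150 nt at later ages. All columns belong to samples of the series and none holds the authors' own comparisons.

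Here the deposited values were rounded and each age was fitted alone with 2 libraries per genotype (at 9 d.p.p. the first 2 wild types, which the study's source data list for transposon RNA at that age) in edgeR 4.0.16 (R 4.3.3), with TMM scaling, its filter on low counts, the quasi-likelihood test and Benjamini-Hochberg adjustment over all genes tested. An adjusted p below 0.01 was called. Age within a genotype was fitted the same way, and interactions over 12 libraries. CPM was computed in edgeR, and group values from it with Python 3.11.15, pandas 2.3.3 and numpy 2.4.6. Likeness was Pearson's r of log2(CPM + 0.5) among genes with a symbol and a mean of at least 1 CPM. Totals ran from 3550217 to 77527451, lowest for a wild type of 13 d.p.p. Nothing says how separate the replicates are beyond their animal codes, so p-values measure the spread between these libraries.

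Groups came from the sample titles. Symbols, given for 1042 genes of the table, and positions are those of the study's supplementary tables, and no sequence is shown because none was in hand. The pair, the 6 pathway lists and the 7 marker lists were chosen with earlier results of these data known. The text names the pair, *Mov10l1*, the 5 genes most like each, up to 4 called genes per list and age by size of change, *Ddx4*, *Dazl* and called markers of the other lists. Others are said to be named after their values were seen. Values of 2 listed genes are not reported here, although the counts of called genes include them.

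Replicate numbers were checked for pairing: deviations from the group means of libraries with the same number correlated at 0.09 at 0 d.p.p., -0.10 at 9 d.p.p., 0.09 at 13 d.p.p., -0.15 at 21 d.p.p. and 0.07 in adults. The fits were tested on simulated data with 200 changed genes. At 13 d.p.p. 3 of 100 changes of 2-fold and 68 of 100 of 4-fold were called, so most 2-fold changes went uncalled. These counts were 26 and 100 at 21 d.p.p., 70 and 100 in adults, and 2 and 54 for the interaction of 21 d.p.p. and adults. Alternatives were DESeq2 1.42.0, RLE size factors, no filter, at least 10 counts in every library, a replicate block, joint fits, all 5 libraries of 9 d.p.p. and each library left out. Plain library totals, a crossed block at 21 d.p.p., 8-library interactions and values within animal codes were added after seeing the data.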

Additional observations from a re-analysis of the deposited data

Results flagged for a closer look

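For both genes every *Mov10l1*-/- library lay below every wild-type library at 0 d.p.p. and above every one in adults and at both 21 and 9 d.p.p. The share of all genes whose libraries separated in this way is not given here. The edgeR test called 1.93% of all genes at 0 d.p.p., 3.74% at 9 d.p.p., 38.0% at 21 d.p.p. and 74.4% in adults. It did not call adult *Tp53inp2*. The values of 0 and 9 d.p.p. chose the pair, and those of the later ages did not. For *Ddit4* the log2 ratio of mean CPM was -0.77 at 0 d.p.p., 0.39 at 9 d.p.p. (all 3 wild-type libraries), 1.94 at 21 d.p.p. and 2.83 in adults. For *Tp53inp2* it was -0.61 at 0 d.p.p., 0.65 at 9 d.p.p., 2.77 at 21 d.p.p. and 0.42 in adults. The difference between 0 d.p.p. and the other ages was not tested, and the later libraries have another read layout.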

How the results depend on the processing

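The genotype calls of 21 d.p.p. and adult *Ddit4* and of 21 d.p.p. *Tp53inp2* were kept under DESeq2, RLE size factors, both filters, the replicate block, the joint fit and each library left out. Of those, plain library totals ended the *Ddit4* call of 21 d.p.p. (1.58, adjusted p = 0.0506). The cause of the shifts below was not tested.

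On plain library totals the log2 fold change of *Ddit4* was 0.403 at 9 d.p.p. and changed sign at 13 d.p.p. (-0.0112), and that of *Tp53inp2* in adults 0.62 (adjusted p = 0.00579). With age on plain totals, *Tp53inp2* was 1.30 in the wild type and -0.49 in *Mov10l1*-/- testes from 21 d.p.p. to adulthood, and *Ddit4* -0.90. From 0 to 9 d.p.p. plain totals gave *Ddit4* 1.18 and 2.41 in wild type and *Mov10l1*-/-, and *Tp53inp2* -1.92 and -0.31, the last a change of sign. The ratio of the highest to the lowest group mean of *Tp53inp2* was 5.30 and 7 listed genes were called at 21 d.p.p. With all 5 libraries of 9 d.p.p., *Ddit4* was 0.36, *Tp53inp2* 0.62, the wild-type change of *Tp53inp2* from 0 d.p.p. -1.05, and 0 listed genes were called.

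The joint fit gave, from 21 d.p.p. to adulthood, 1.59 for wild-type *Tp53inp2* and -1.06 and -0.63 for *Ddit4* and *Tp53inp2* in *Mov10l1*-/- testes, none past the threshold. From 13 to 21 d.p.p. in *Mov10l1*-/- testes, *Ddit4* and *Tp53inp2* passed under DESeq2 (0.95 and 1.04) and without a filter (0.95 and 1.07). Interactions past the threshold under an alternative were, for 13 and 21 d.p.p., *Tp53inp2* without a filter (2.07), and for 21 d.p.p. and adults, *Tp53inp2* under DESeq2 (-2.41), without a filter (-2.46) and with 8 libraries (-2.22), and *Ddit4* with 8 libraries (1.02). With the replicate block, the interactions of *Ddit4* (1.73) and *Tp53inp2* (-2.21) passed, no genotype call of the pair changed at 13 d.p.p., 21 d.p.p. or in adults, and 16, 20 and 3 listed genes were called at 0, 9 and 13 d.p.p. The crossed block at 21 d.p.p. called 29 listed genes and 7619 genes in all. Without centring, 3 of the 5 most alike genes were shared for each gene.

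Of the 47 listed genes DESeq2 called 10, 37 and 2 at 0, 9 and 13 d.p.p., no filter 15, 39 and 2, and the joint fit 3 at 13 d.p.p. Over all genes, the counts called at 0 d.p.p. were 316 in the reported fit, 694 with DESeq2, 1394 with the block and 1321 without a filter. At 9 d.p.p. they were 583, 1061 with DESeq2, 63 with all 5 libraries and 1668 without a filter. At 13 d.p.p. they were 16, 307 with DESeq2, 25 with RLE or plain totals, 477 with the block, 342 with the joint fit, 4 with at least 10 counts in every library and 431 without a filter. At 21 d.p.p. plain totals called 2166 against 5637. From 13 to 21 d.p.p. the wild-type count was 554, against 1176 with DESeq2, 2107 with the joint fit, 200 with at least 10 counts and 1580 without a filter, and the *Mov10l1*-/- count 1342, against 2280 with DESeq2 and 3306 without a filter. From 21 d.p.p. to adulthood the *Mov10l1*-/- count was 4297, against 2170 with the joint fit and 2713 on plain totals. The interaction of 13 and 21 d.p.p. had 670, against 314 with 8 libraries, 1623 with DESeq2 and 1373 without a filter.

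With 1 library left out, which leaves a lone sample assumed to vary like the others, genotype log2 fold changes ranged for *Ddit4* from -0.91 to -0.66 at 0 d.p.p., 0.43 to 0.48 at 9 d.p.p., -0.49 to 0.89 at 13 d.p.p. (-0.40 without wild-type replicate 1, -0.49 without *Mov10l1*-/- replicate 2), and for *Tp53inp2* from -0.67 to -0.60 at 0 d.p.p., -0.17 to 2.17 at 13 d.p.p. (-0.17 without wild-type replicate 2) and 0.21 to 0.57 in adults. From 13 to 21 d.p.p. the wild type gave -1.21 to 0.0584 for *Ddit4* (0.0584 without replicate 2 of 13 d.p.p.) and -1.72 to 0.63 for *Tp53inp2* (0.63 without replicate 1, and -1.72, adjusted p = 0.00412, without replicate 2), and *Mov10l1*-/- testes 0.53 to 1.54 and 0.65 to 1.57, past the threshold for *Ddit4* without *Mov10l1*-/- replicate 2 of 13 d.p.p. and for *Tp53inp2* without replicate 1. From 21 d.p.p. to adulthood *Mov10l1*-/- testes gave -1.13 to -0.98 for *Ddit4* and -0.72 to -0.51 for *Tp53inp2*. Interactions ranged for *Tp53inp2* from 0.43 to 2.82 for 13 and 21 d.p.p. and from -2.53 to -2.11 for 21 d.p.p. and adults, past the threshold without wild-type replicate 2 of 13 d.p.p. in both and without replicate 1 in the second. Listed genes called ranged from 1 to 9 at 0 d.p.p., 1 to 40 at 9 d.p.p., 0 to 3 at 13 d.p.p. and 17 to 28 at 21 d.p.p. The ratio of the highest to the lowest group mean of *Tp53inp2* ranged from 6.29 to 10.8.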
